A study of Rattus norvegicus with 36 samples.

Results

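The circadian clock genes described here are 6 of the 31546 Ensembl gene IDs counted in the nucleus accumbens of rats. They were taken by ID and not by a cutoff on their values, though earlier results of these data were known. They are Per1 (ENSRNOG00000007387), Per2 (ENSRNOG00000020254), Per3 (ENSRNOG00000018413), Dbp (ENSRNOG00000021027), Nr1d1 (ENSRNOG00000009329) and Arntl (ENSRNOG00000014448). The nucleus accumbens is a region of the ventral striatum that receives dopamine and takes part in reward learning. RNA was sequenced from 9 Sprague-Dawley rats aged 8 weeks, with 4 technical replicates per rat and 36 libraries in all. Vulnerable rats (n = 3) and Non Vulnerable rats (n = 3) both carry the label of 4 cocaine injections, given intraperitoneally at 20 mg/kg during place conditioning. Saline rats (n = 3) carry the label of 4 injections of physiological serum. Conditioning sessions lasted 20 min and were set 6 h apart, and all 3 groups went through the alternation of compartments. The description of the series speaks of rats that did or did not express a preference for the place paired with cocaine. The tissue label names the nucleus accumbens alone, and the text on extraction also names the caudate putamen. No sample label states whether Vulnerable means that a rat did or did not express the preference, so the groups are called here by their phenotype label.

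The circadian clock is a feedback loop of transcription that runs in nearly every cell of a mammal. ARNTL, also called BMAL1, pairs with CLOCK and drives genes that hold E-boxes near their start, among them the Per genes, Nr1d1 and Dbp. PER proteins join CRY proteins and shut ARNTL and CLOCK down again, while NR1D1, or REV-ERB alpha, represses Arntl through ROR elements, which closes a further loop. DBP is an output factor that acts at D-boxes, including one in Per2. In mouse liver, Nr1d1 and Dbp messages peak in the day, the Per1 and Per2 messages follow, and Arntl peaks at nearly the opposite time. Per1 and Per2 also answer quickly to stimuli outside the clock, such as neuronal activity through cAMP signalling and glucocorticoid hormones. The sources used here give neither the hour at which tissue was taken nor the light schedule.

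The 250 bases before an annotated start are printed for 4 of the genes, because such elements are where the proteins of the loop act on genes: Per2, Arntl and Nr1d1 hold a match, and Per3, whose level differed most of the 6 between Vulnerable and Non Vulnerable rats, holds none. Sequences are RefSeq's on build GRCr8 and run 5′ to 3′ on the strand of the gene, and capitals mark a motif. Per2 lies at chr9:99496994-99497243 (minus strand), Arntl at chr1:176766078-176766327 (plus strand), Nr1d1 at chr10:84231813-84232062 (minus strand) and Per3 at chr5:166777801-166778050 (minus strand).
Per2: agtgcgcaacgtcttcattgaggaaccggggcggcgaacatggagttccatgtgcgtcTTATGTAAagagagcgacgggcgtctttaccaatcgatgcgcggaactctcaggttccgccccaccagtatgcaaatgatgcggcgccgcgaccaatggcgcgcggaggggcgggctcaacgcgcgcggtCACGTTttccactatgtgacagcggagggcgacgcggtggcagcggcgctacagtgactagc
Arntl: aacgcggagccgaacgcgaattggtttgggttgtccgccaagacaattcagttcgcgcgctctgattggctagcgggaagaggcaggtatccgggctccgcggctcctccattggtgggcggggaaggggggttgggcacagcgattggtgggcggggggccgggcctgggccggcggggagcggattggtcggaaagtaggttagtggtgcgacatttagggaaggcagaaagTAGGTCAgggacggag
Nr1d1: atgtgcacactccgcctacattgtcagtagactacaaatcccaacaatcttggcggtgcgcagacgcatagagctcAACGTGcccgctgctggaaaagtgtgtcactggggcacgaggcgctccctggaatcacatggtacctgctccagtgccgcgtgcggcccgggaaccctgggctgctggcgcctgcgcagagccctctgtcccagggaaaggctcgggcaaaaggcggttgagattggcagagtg
Per3: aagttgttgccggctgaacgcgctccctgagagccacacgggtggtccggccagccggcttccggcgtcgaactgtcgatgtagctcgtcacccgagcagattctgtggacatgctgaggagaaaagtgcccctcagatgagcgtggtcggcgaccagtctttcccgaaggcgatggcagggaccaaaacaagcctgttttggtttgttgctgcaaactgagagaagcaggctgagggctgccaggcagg
The capitals in Per2 are a D-box (TTATGTAA), 192 bases before the start, and an E-prime box (CACGTT), 62 bases before it. In Arntl they are the core of a ROR element (TAGGTCA), 16 bases before the start. In Nr1d1 they are an E-prime box read from the opposite strand, 174 bases before the start. A further annotated Nr1d1 start, with the window chr10:84229455-84229704, had an E-box (CACGTG) 191 bases before it.

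All 6 genes had an entry, and both strands were searched for the E-box (CACGTG), the E-prime box (CACGTT), the D-box (spelled TTATGTAA or else TTATGCAA), the core of the ROR element (TAGGTCA) and the cAMP response element (spelled TGACGTCA). E-box and E-prime box differ in their last base, so no match counts as both, and each motif was counted on its own. Of 33469 windows of this length, 5.59% held an E-box, 4.07% an E-prime box, 1.6% a D-box, 2.26% the ROR core and 1.59% the cAMP element. The windows of Per1, Per3 and Dbp held none of these letters, which says nothing about sites farther from the start. A match is a description of the letters and not a measured binding site.

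Library totals lay between 10160424 and 16297870 counts, and the 4 libraries of a rat together gave between 41213813 and 64081679. Differences among the 4 technical replicates of any rat stayed within sampling noise (chi-square per degree of freedom of 1.0039 to 1.0199 over genes) so they were summed and counted as 1 sample. Between rats of a group the same statistic was 51.804 in Vulnerable, 118.43 in Non Vulnerable and 52.046 in Saline rats. Over all genes together, Non Vulnerable rats were thus the most unlike one another. This did not hold for every clock gene. Relative to the mean, the SD in Non Vulnerable rats was the lowest of the groups for Per1, Per2 and Per3. It was the highest for Dbp and Arntl, and lay between the others for Nr1d1. Each clock gene had between 1377 and 13406 counts in a rat, and its CPM in the libraries of 1 rat differed by at most 1.16-fold. All 6 passed the filter on low counts and are among the 16029 genes tested. Levels are CPM, counts scaled to a common library total with TMM factors, and are not corrected for gene length, so they are compared between rats and not between genes. The files do not pair IDs with names, so markers of striatal neurons, glia or neighbouring regions could not be read, nor the label of the tissue checked against them. In bulk tissue, fewer cells of a type and less RNA per cell cannot be told apart.

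In Vulnerable rats the 3 Per genes and Arntl were higher than in Non Vulnerable rats, by 1.36-fold to 2.06-fold, while Dbp and Nr1d1 did not pass the test. In Non Vulnerable rats Per3 and Arntl were lower than in Saline rats. Of all genes tested, 31.5% were called in the first of these comparisons and 14.7% in the second. With a rat left out, the Per1 call was kept in 6 of 9 fits. The call of Arntl against Saline rats was kept in 3 of 9. No clock gene passed the test between Vulnerable and Saline rats, where Per1 and Per2 had the largest differences of the 6. Per3 was lowest in Non Vulnerable rats, whereas Per1 overlapped in Non Vulnerable and Saline rats and was highest in Vulnerable rats. The comparisons share rats with each other, so their values for a gene are given side by side and are not independent.

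**Figure D1:**
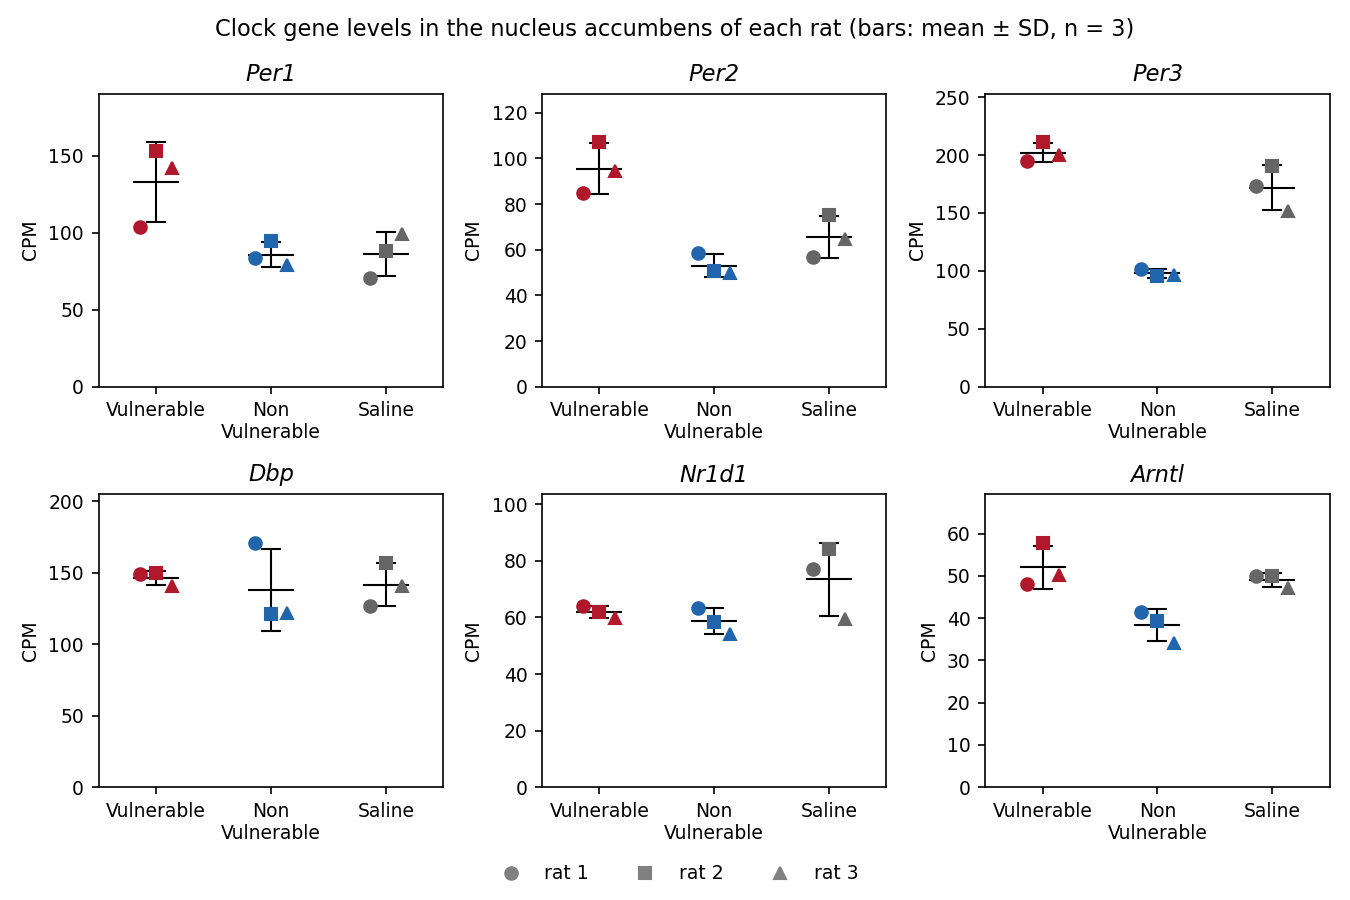
Level of each clock gene (CPM after TMM scaling, axes from 0) in every rat of the Vulnerable (red), Non Vulnerable (blue) and Saline (grey) groups, with the mean and SD of 3 rats as black bars. Per3 shows 195 to 211 CPM in Vulnerable, 95.5 to 102 in Non Vulnerable and 152 to 191 in Saline rats, and Dbp overlaps in all 3 groups.

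The Per genes encode the repressors of the loop. Per3, the member of the family that mice can lose with little loss of rhythm, had 195, 211 and 200 CPM in Vulnerable rats 1 to 3. It had 102, 95.5 and 96.1 CPM in Non Vulnerable rats and 173, 191 and 152 CPM in Saline rats. All 3 Non Vulnerable rats lay below each of the other 6 rats, and the lowest Vulnerable rat lay just above the highest Saline rat. The means were 202 ± 8.18 CPM in Vulnerable, 97.8 ± 3.52 in Non Vulnerable and 172 ± 19.6 in Saline rats (SD, n = 3 each). Per3 was 2.06-fold higher in Vulnerable than in Non Vulnerable rats, a log2 difference of 1.04 with SE 0.0918 (95% interval 0.84 to 1.25), with an adjusted p of 0.000771 in edgeR's quasi-likelihood test with Benjamini-Hochberg adjustment. It ranked 21st of 16029 genes by p in that comparison and 654th by the size of a positive difference. In Non Vulnerable against Saline rats it was 0.569-fold the Saline level, a log2 difference of -0.81 with SE 0.0915 (interval -1.02 to -0.61) and an edgeR adjusted p of 0.00571. Vulnerable rats differed from Saline rats by 0.23 on the log2 scale (interval 0.03 to 0.44), with an edgeR adjusted p of 0.897. Both calls of Per3 were kept with each of the 9 rats left out in turn, with log2 differences of 1.01 to 1.12 for Vulnerable against Non Vulnerable and of -0.92 to -0.73 for Non Vulnerable against Saline.

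Per2, a core repressor whose loss shortens or abolishes the rhythm of mice, had 84.8, 107 and 94.3 CPM in Vulnerable rats. Non Vulnerable rats had 58.7, 50.6 and 49.9 CPM, and Saline rats had 56.9, 75.1 and 64.5 CPM. Every Vulnerable rat lay above all 6 others, while Non Vulnerable rat 1 lay above Saline rat 1, so those groups overlapped. The means were 95.5 ± 11.3 CPM in Vulnerable, 53.1 ± 4.85 in Non Vulnerable and 65.5 ± 9.15 in Saline rats (SD, n = 3 each). Per2 was 1.8-fold higher in Vulnerable than in Non Vulnerable rats (log2 0.85, SE 0.124, interval 0.57 to 1.13, edgeR adjusted p = 0.00249), and the call was kept with each rat left out. Non Vulnerable rats differed from Saline rats by -0.30 on the log2 scale (interval -0.58 to -0.02), which did not pass the edgeR test (adjusted p = 0.128), although it did under scaling by total counts (-0.41, adjusted p = 0.0346). Against Saline rats, Vulnerable rats differed by 0.54 (interval 0.26 to 0.82, edgeR adjusted p = 0.897), and DESeq2 called this difference (adjusted p = 0.0436). By the p of edgeR, which called 0 genes between Vulnerable and Saline rats, Per2 ranked 21st of all genes.

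Per1, the family member most readily induced by activity and by stress hormones, had 104, 153 and 142 CPM in Vulnerable rats. Non Vulnerable rats had 83.4, 94.6 and 79.1 CPM, and Saline rats had 70.9, 88.2 and 99.4 CPM. Vulnerable rat 1 lay just above the highest Saline rat and the other Vulnerable rats lay far above it, while Non Vulnerable and Saline rats overlapped. The means were 133 ± 25.8 CPM in Vulnerable, 85.7 ± 8.02 in Non Vulnerable and 86.2 ± 14.4 in Saline rats (SD, n = 3 each). Per1 was 1.55-fold higher in Vulnerable than in Non Vulnerable rats (log2 0.63, SE 0.164, interval 0.26 to 1.01, edgeR adjusted p = 0.0206). That call was lost without Vulnerable rat 2 (0.52, adjusted p = 0.0702), Vulnerable rat 3 (0.63, adjusted p = 0.0577) or Non Vulnerable rat 3 (0.58, adjusted p = 0.0674) in edgeR. Against Saline, Vulnerable rats differed by 0.63 (interval 0.25 to 1.00), which did not pass the edgeR test (adjusted p = 0.897), and Non Vulnerable rats differed by -0.01 (interval -0.38 to 0.36, edgeR adjusted p = 0.981). The interval between Vulnerable and Saline rats thus covered differences from 1.19-fold to 2-fold.

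Arntl encodes the activator of the loop, and its message would usually run against those of Dbp and Nr1d1. It had 48.1, 57.8 and 50.2 CPM in Vulnerable rats, 41.5, 39.4 and 34.1 CPM in Non Vulnerable rats and 50, 49.9 and 47.2 CPM in Saline rats. Non Vulnerable rats lay below all 6 other rats, and Vulnerable and Saline rats overlapped. The means were 52 ± 5.09 CPM in Vulnerable, 38.3 ± 3.81 in Non Vulnerable and 49 ± 1.6 in Saline rats (SD, n = 3 each). Arntl was 1.36-fold higher in Vulnerable than in Non Vulnerable rats (log2 0.44, SE 0.0942, interval 0.23 to 0.65, edgeR adjusted p = 0.00968), and this call was kept with each rat left out. In Non Vulnerable rats it was 0.781-fold the level of Saline rats (log2 -0.36, SE 0.0943, interval -0.57 to -0.14, edgeR adjusted p = 0.0382). That call was lost when Vulnerable rat 3, Non Vulnerable rat 2 or 3, or any 1 of the 3 Saline rats was left out, with edgeR adjusted p of 0.0562 to 0.129. It was also lost with only the groups compared in the fit (edgeR adjusted p = 0.0595). Vulnerable and Saline rats differed by 0.08 (interval -0.13 to 0.30, edgeR adjusted p = 0.918).

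Dbp, a direct target of ARNTL and CLOCK with a large daily swing in liver, had 149, 150 and 141 CPM in Vulnerable rats. Non Vulnerable rats had 171, 121 and 122 CPM, and Saline rats had 127, 157 and 141 CPM. Non Vulnerable rat 1 held the highest level of the 9 rats and the other Non Vulnerable rats the lowest, so the groups overlapped throughout. The means were 147 ± 5.11 CPM in Vulnerable, 138 ± 28.7 in Non Vulnerable and 142 ± 15.2 in Saline rats (SD, n = 3 each). The log2 differences were 0.09 for Vulnerable against Non Vulnerable (interval -0.23 to 0.40), -0.04 for Non Vulnerable against Saline (interval -0.35 to 0.28) and 0.05 for Vulnerable against Saline (interval -0.27 to 0.37). Their edgeR adjusted p values were 0.653, 0.88 and 0.968 in that order. Without Non Vulnerable rat 1, Dbp was called higher in Vulnerable than in Non Vulnerable rats (a log2 difference of 0.29, edgeR adjusted p = 0.0434), so this rat decides that value.

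Nr1d1, the repressor of Arntl, had 64.1, 62 and 59.7 CPM in Vulnerable rats, 63.5, 58.5 and 54.2 CPM in Non Vulnerable rats and 77, 84.3 and 59.3 CPM in Saline rats. Saline rats 1 and 2 lay above all cocaine rats, and Saline rat 3 lay among them. The means were 61.9 ± 2.19 CPM in Vulnerable, 58.7 ± 4.7 in Non Vulnerable and 73.5 ± 12.8 in Saline rats (SD, n = 3 each). Vulnerable and Non Vulnerable rats differed by 0.08 on the log2 scale (interval -0.20 to 0.35, edgeR adjusted p = 0.65). Against Saline, the differences were -0.25 in Vulnerable rats (interval -0.52 to 0.03, edgeR adjusted p = 0.897) and -0.32 in Non Vulnerable rats (interval -0.60 to -0.05, edgeR adjusted p = 0.102). Nr1d1 was called lower in Non Vulnerable than in Saline rats without Saline rat 3 (-0.48, edgeR adjusted p = 0.0191) and under total-count scaling (-0.43, edgeR adjusted p = 0.0415). In the RefSeq annotation Nr1d1 overlaps Thra, a thyroid hormone receptor gene, and Per2 overlaps a long noncoding gene. Since the sources used here do not say whether counting used the strand, the assignment of reads in those overlaps is uncertain.

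**Figure D2:**
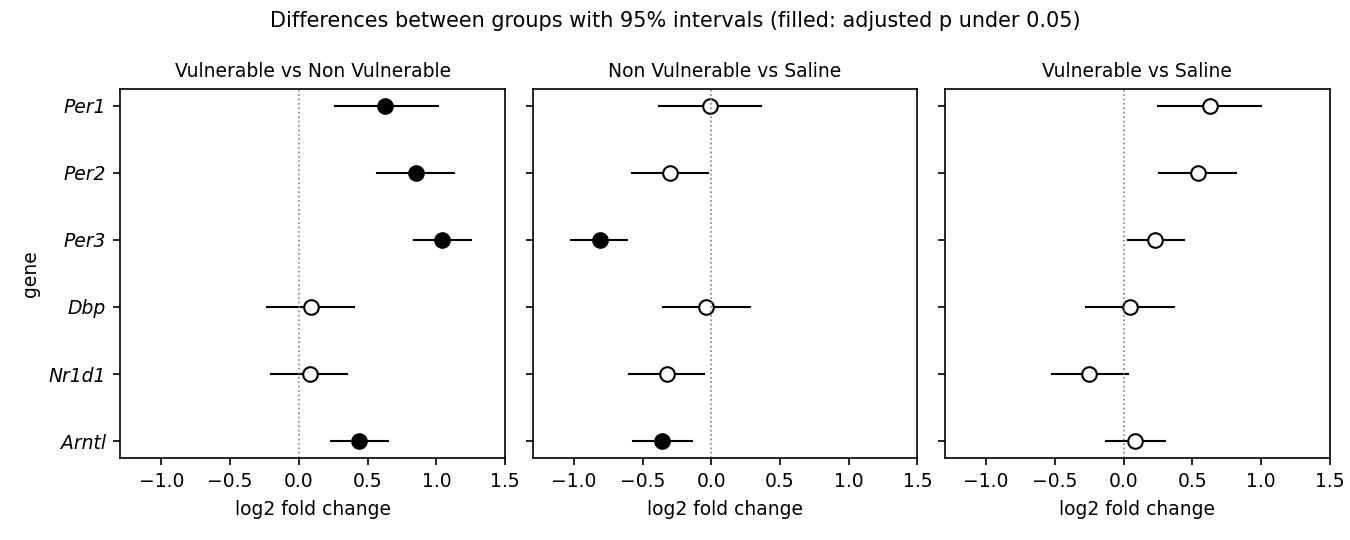
Log2 fold change of each clock gene in the 3 comparisons, as points with 95% intervals from the edgeR fit, filled where the adjusted p is under 0.05. Between Vulnerable and Non Vulnerable rats Per1, Per2, Per3 and Arntl are filled at 0.63, 0.85, 1.04 and 0.44, and between Vulnerable and Saline rats no point is filled.

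Between Vulnerable and Non Vulnerable rats, 4 of the 6 genes were called and all 4 were higher in Vulnerable rats. Of all 16029 genes, 31.5% were called in that comparison and 15.1% were called higher in Vulnerable rats, so calls were common. The levels of 4 of the 6 did not overlap between these groups, against 46.7% of all genes. The median log2 difference of the 6 was 0.54, beside -0.04 over all genes, and the median of its size was 0.54 beside 0.31. Scaling by total counts in place of TMM moved the median over all genes to 0.09, and the same 4 clock genes were called. Under that scaling 26.1% of all genes were called and 20.5% were called higher in Vulnerable rats.

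Between Non Vulnerable and Saline rats, 2 of the 6 genes, Per3 and Arntl, were called, both lower in Non Vulnerable rats. The background was 14.7% of all genes called and 7.86% called lower. The levels of these 2 did not overlap between the groups, and neither did those of 35% of all genes. All 6 fold changes were below 0, with a median of -0.31 beside 0.02 over all genes, though those of Per1 and Dbp changed sign when single rats were left out. The size of the difference had a median of 0.31 for the 6 and 0.24 for all genes. Total-count scaling moved the median over all genes to -0.09 and called 4 of the 6, Per2 and Nr1d1 as well, all lower. Under that scaling 12.3% of all genes were called, 11.6% lower and 0.73% higher, so nearly all calls were lower.

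Between Vulnerable and Saline rats, 0 of the 6 genes were called in edgeR, as were 0% of all genes. At an unadjusted p under 0.05 there were 807 of 16029 genes, about as many as that threshold passes when no gene differs. Among them were Per1 (p = 0.00423), Per2 (p = 0.00176) and Per3 (p = 0.0315) by edgeR's quasi-likelihood test. limma voom called 0 genes and DESeq2 called 30, of which Per2 was the only clock gene. The levels of Per1, Per2 and Per3 did not overlap, all higher in Vulnerable rats, against 11.9% of all genes without overlap. For 1 gene taken alone, the smallest p an exact permutation test allows with 3 rats a group is 0.1.

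**Figure D3:**
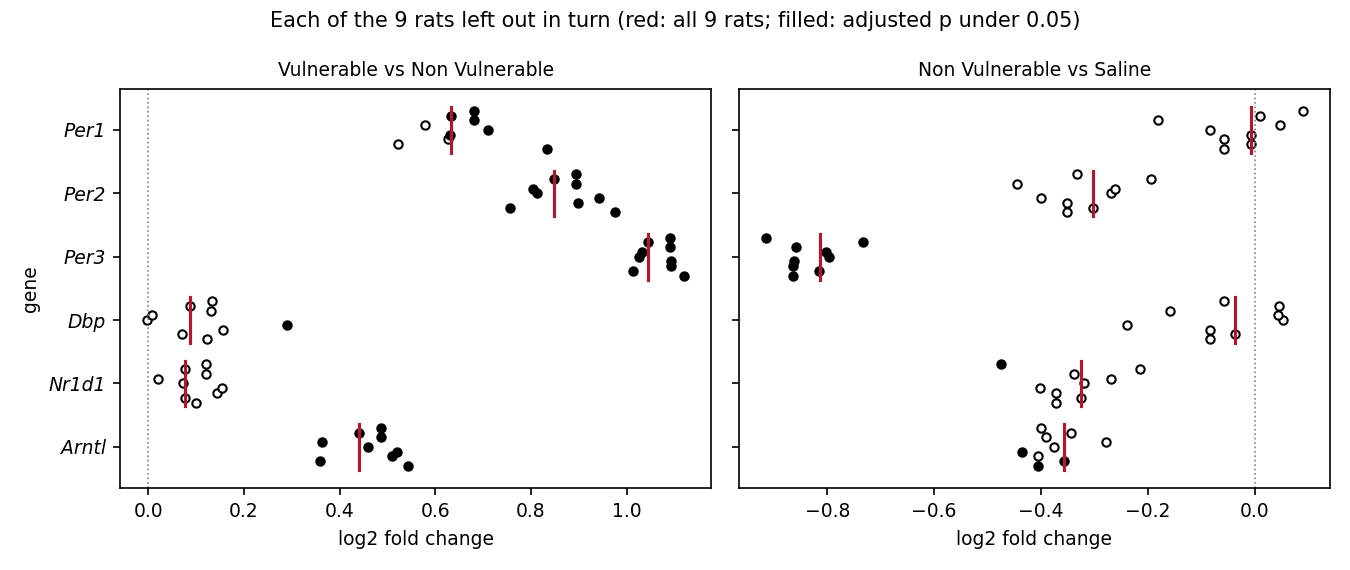
Log2 fold change of each clock gene with each of the 9 rats left out in turn (points, filled where the edgeR adjusted p is under 0.05) beside the value from all 9 rats (red line), for Vulnerable against Non Vulnerable (left) and Non Vulnerable against Saline (right). Per3 stays between 1.01 and 1.12 on the left and between -0.92 and -0.73 on the right, with every point filled.

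Differences between genes inside a rat do not depend on the scaling between rats, and the length of a gene adds the same constant in every rat. The mean log2 CPM of Per1, Per2 and Per3 minus that of Dbp and Nr1d1 was 0.29, 0.65 and 0.60 in Vulnerable rats. It was -0.40, -0.12 and -0.17 in Non Vulnerable rats and -0.15, -0.09 and 0.12 in Saline rats. Vulnerable rats lay above all others, and Non Vulnerable and Saline rats overlapped. The difference averaged 0.51 ± 0.19 in Vulnerable, -0.23 ± 0.15 in Non Vulnerable and -0.04 ± 0.14 in Saline rats (SD, n = 3 each). Relative to Dbp and Nr1d1, the Per genes were thus higher in Vulnerable rats than in the other groups. This difference is built from the single-gene values above and is no separate evidence. Between the cocaine groups the Per genes were already called, and Dbp and Nr1d1 were not.

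Arntl minus the mean log2 CPM of all 5 other genes was -1.19 ± 0.05 in Vulnerable, -1.09 ± 0.07 in Non Vulnerable and -1.02 ± 0.13 in Saline rats (SD, n = 3 each). By that measure Vulnerable rats were slightly lower than Non Vulnerable rats, and the groups overlapped. The direction between the cocaine groups turned when the Per genes were left out of the mean. Arntl relative to Dbp and Nr1d1 alone, genes that usually peak when Arntl is low, gave log2 differences of -1.02, -0.74 and -0.87 in Vulnerable rats. The same difference was -1.33, -1.09 and -1.26 in Non Vulnerable rats and -0.98, -1.20 and -0.95 in Saline rats. Vulnerable rats lay above Non Vulnerable rats without overlap, and Saline rats overlapped both. The Per genes and Arntl thus differed in the same direction between the cocaine groups, while Dbp and Nr1d1 had log2 differences of 0.09 and 0.08 that did not pass the test. Whether rats were sampled at different hours was not tested.

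Per3 and Per1 differed from each other in which group stood out. Per3 minus Per1 was 0.91, 0.46 and 0.49 in Vulnerable rats, 0.29, 0.01 and 0.28 in Non Vulnerable rats and 1.29, 1.11 and 0.61 in Saline rats, in log2 units. Non Vulnerable rats had the lowest values without overlap, and Vulnerable and Saline rats overlapped. Per3 minus Arntl averaged 1.96 ± 0.08 in Vulnerable, 1.36 ± 0.12 in Non Vulnerable and 1.80 ± 0.13 in Saline rats (SD, n = 3 each). Per3 was thus low in Non Vulnerable rats relative to Arntl as well, although Arntl was itself lower there. Dbp minus Nr1d1 was 1.24 ± 0.03 in Vulnerable, 1.22 ± 0.20 in Non Vulnerable and 0.96 ± 0.27 in Saline rats, with overlap in all 3 groups.

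**Figure D4:**
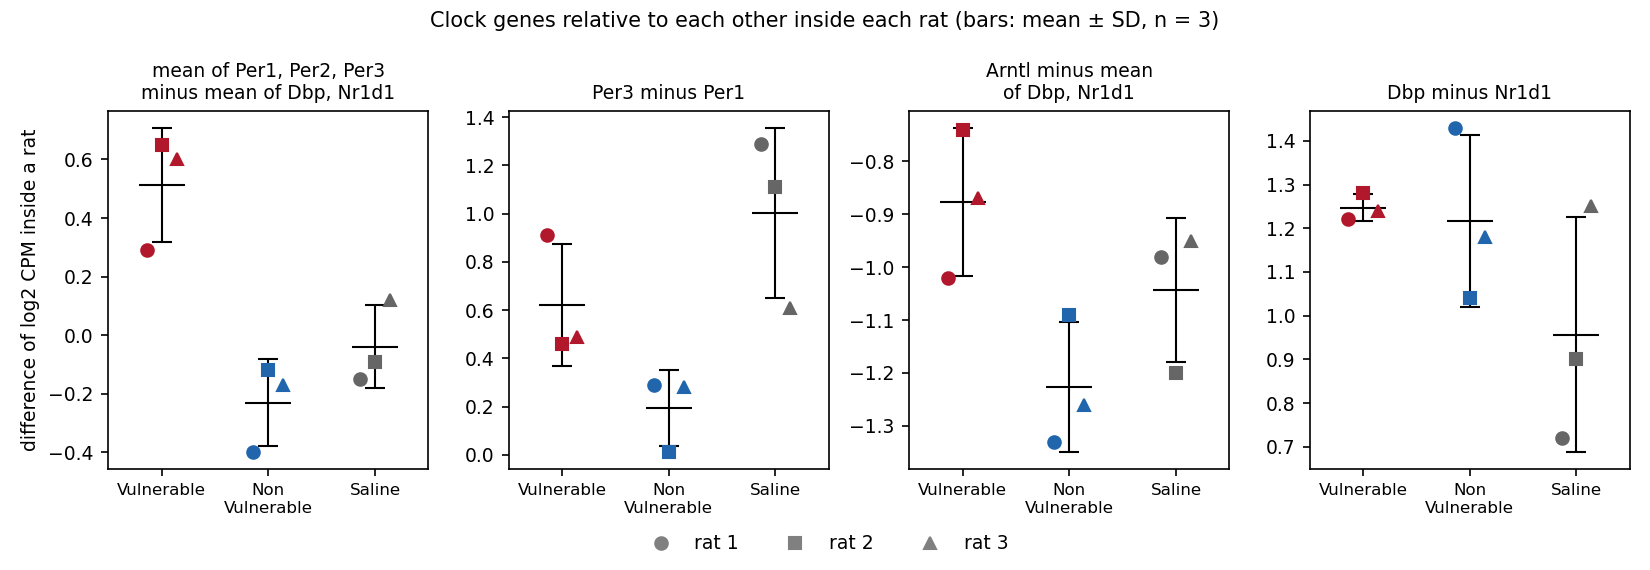
Differences of log2 CPM between clock genes inside each rat, with the mean and SD of 3 rats per group as black bars; the axes do not start at 0 and differ between panels. The mean of the Per genes relative to Dbp and Nr1d1 is 0.29 to 0.65 in Vulnerable rats and at most 0.12 in the others, and Per3 minus Per1 is lowest in Non Vulnerable rats.

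Over the 9 rats, log2 CPM of the 6 genes made 15 pairs, 14 of them with a positive Pearson r, and the points share the 3 groups. For Per3 the Non Vulnerable rats formed a cluster apart from the rest, so no r with the other clock genes is given for it. Per1 and Per2 had r = 0.852 (exact permutation p = 0.00315, adjusted over the 15 pairs 0.0215) and rho = 0.833 (exact p = 0.00827, adjusted 0.0404). Without the 2 rats farthest from the median of Per1, Vulnerable rats 2 and 3, r fell to 0.547, over a narrower range of Per1. The deviations from group means had r = 0.615. Per2 and Arntl had r = 0.823 (exact permutation p = 0.00543, adjusted 0.0215) and rho = 0.817 (exact p = 0.0108, adjusted 0.0404). That r was 0.725 without the 2 rats farthest from the median of Per2, and 0.617 for the deviations from group means. Arntl was also lower in every Non Vulnerable rat, and Per2 higher in every Vulnerable rat, than in the other groups. The permutations treat the 9 rats as exchangeable, so these p values take in the differences between groups.

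Dbp and Nr1d1, which peak close together in liver, had r = 0.338 (exact permutation p = 0.374, adjusted 0.468) and rho = 0.617 (exact p = 0.0857, adjusted 0.214). Arntl had a positive r with both, 0.423 with Dbp (exact permutation p = 0.26, adjusted 0.391) and 0.493 with Nr1d1 (exact permutation p = 0.17, adjusted 0.305). Neither relation passed, and Spearman's rho was 0.333 (exact p = 0.385, adjusted 0.445) and 0.533 (exact p = 0.148, adjusted 0.27). The negative pair was Per1 with Nr1d1, at r = -0.31 (exact permutation p = 0.435, adjusted 0.501) and rho = -0.117 (exact p = 0.776, adjusted 0.776). Without the 2 rats farthest from the median of the first gene of a pair, r was 0.379 for Dbp and Nr1d1, 0.676 for Dbp and Arntl, 0.642 for Nr1d1 and Arntl, and -0.284 for Per1 and Nr1d1.

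The profile of Per3 over the 9 rats, low in the Non Vulnerable cluster, was set beside those of all genes as a description. Pearson's r was computed with 13721 other genes of at least 1 CPM on average. It was highest for ENSRNOG00000013836 (mean 37.8 CPM), at r = 0.999, and ENSRNOG00000008472 (mean 95.4 CPM) came next, at r = 0.997. By Spearman's rho other IDs led, among them ENSRNOG00000003359 (mean 606 CPM) and ENSRNOG00000008747 (mean 242 CPM), both at rho = 1. Which ID was most alike thus depended on the measure. These IDs have no name in the files used here. With the other clock genes included, 13726 genes were ranked, and the clock gene most like Per3 by Pearson's r was Arntl, in 875th place. By Spearman's rho it was Per2, in 311th place, and Arntl was 476th. Per2 was 71st in the order for Per1 by Pearson's r and 111th by Spearman's rho, while Per1 was 696th and 987th in the order for Per2.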

How the data were processed

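The authors deposited raw read counts, whole numbers per Ensembl gene ID, in one table per library. Libraries were polyA-selected and strand-specific, per the labels' protocols. STAR (no version), HTSeq 0.5.3 and bcl2fastq 2.17.1.14 are named, per the submitters' processing notes. For genome build, annotation and use of strand, the entry is the same: not given in the sources used here. How reads of overlapping genes and of the related Per genes were assigned is therefore uncertain.

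Counts of the 4 technical replicates were summed per rat. That rats are separate animals is taken from their numbers in the labels. Genes kept by filterByExpr (16029) were scaled with TMM and fitted with edgeR 4.0.16 in R 4.3.3 (glmQLFit, robust, 1 coefficient per group, 9 rats, 6 residual degrees of freedom). The fit assumes the same spread of a gene in all 3 groups. Calls are adjusted p under 0.05 after Benjamini-Hochberg adjustment across every gene tested. SE and 95% intervals come from the same fit, and the prior count behind log2 CPM was 2. The procedure was tested on simulated data. DESeq2 1.42.0, limma 3.58.1 (voom), other scalings and left-out rats were alternatives.

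The clock genes, the lists and the tests were chosen with earlier results of these data known. Likeness over the 9 rats was computed for every clock gene, and the IDs most like Per3 are printed, a choice made after the values were seen. The names of the 6 were given with their IDs and could not be checked, because RefSeq's gene table paired 0 of the IDs with a symbol. For that reason the planned lists of further clock genes and of cell type markers, 84 genes in all, could not be used.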

Additional observations from a re-analysis of the deposited data

Results flagged for a closer look

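The departure from Saline differed between Vulnerable and Non Vulnerable rats in 4 of the 6 clock genes, beside 31.5% of all 16029 genes. The difference of departures, on the log2 scale, was 0.63 for Per1 (adjusted p = 0.0206), 0.85 for Per2 (adjusted p = 0.00249), 1.04 for Per3 (adjusted p = 0.000771) and 0.44 for Arntl (adjusted p = 0.00968), by edgeR's quasi-likelihood test. The call of Per1 was lost without Vulnerable rat 2 (adjusted p = 0.0702), Vulnerable rat 3 (adjusted p = 0.0577) or Non Vulnerable rat 3 (adjusted p = 0.0674) in edgeR. Both departures use the same Saline rats, which cancel, so these are the values of the comparison between the cocaine groups and no separate evidence. In Vulnerable rats the departures were 0.63, 0.54, 0.23 and 0.08 for Per1, Per2, Per3 and Arntl. In Non Vulnerable rats they were -0.01, -0.30, -0.81 and -0.36.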

How the results depend on the processing

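Of 162 values recomputed under 9 other settings, of which 1 fits only the 6 rats compared, 157 kept direction and side of the threshold, as did 143 of 162 with a rat left out. Clock genes called between Vulnerable and Non Vulnerable rats numbered 4 and stayed between 3 and 5 with a rat left out. Between Non Vulnerable and Saline rats they numbered 2, but 4 with total-count scaling, 1 when the third group was left out of the fit, and 1 to 2 with a rat left out. Between Vulnerable and Saline rats they numbered 0, and 1 with DESeq2. Pairs of clock genes with an adjusted p under 0.05 for r numbered 4, and 1 (without Vulnerable rat 2) to 6 with a rat left out, among them 2 without Saline rat 2. The 4 include Per2 with Per3 and Per3 with Arntl, whose r is not given above. With a rat left out, log2 differences whose sign turned ranged from -0.0022 to 0.29 for Dbp between the cocaine groups, from -0.18 to 0.09 for Per1 and from -0.24 to 0.05 for Dbp between Non Vulnerable and Saline rats, and from -0.03 to 0.13 for Dbp between Vulnerable and Saline rats; the cause was not tested. The difference between the cocaine groups in Arntl relative to the other 5 genes was -0.10, and 0.35 relative to Dbp and Nr1d1 alone.

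Over all genes, calls between Vulnerable and Non Vulnerable rats (5050, of which 2419 higher) numbered 2798 and 3035 when Non Vulnerable rat 2 or 3 was removed, and 2820 and 3050 when Vulnerable rat 2 or 3 was removed. With total-count scaling 3282 were higher and 896 lower. Between Non Vulnerable and Saline rats, calls (2351, of which 1091 higher) numbered 3747 with DESeq2, 1164 when Vulnerable rats were left out of the fit, 1334 when only Vulnerable rat 3 was, 3615, 490 and 905 on removal of Non Vulnerable rat 1, 2 or 3, and 952 and 251 on removal of Saline rat 1 or 2. With total-count scaling 117 were higher and 1857 lower. Between Vulnerable and Saline rats total-count scaling called 1 gene.

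Deviations from group means of same-numbered rats of different groups had r of -0.16 to 0.177. The rat of the same number was the best match in some cases and not in others. With 3 rats a group, this cannot decide whether the numbers pair rats. With rat number as a replicate block, 4, 2 and 0 clock genes were called in the 3 comparisons, among 5160, 2453 and 0 genes, and Per1 between Non Vulnerable and Saline rats turned to 0.01.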
